A study of Mus musculus with 25 samples.

Results

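The 10 genes described here encode phosphatases that switch off mitogen-activated protein kinases (MAP kinases): *Dusp1*, *Dusp2*, *Dusp4*, *Dusp5*, *Dusp6*, *Dusp7*, *Dusp8*, *Dusp10*, *Dusp14* and *Dusp16*. They were chosen by symbol, with earlier results of these data known. All 10 were found among the 52636 genes counted in mouse soleus muscle and passed the filter on low counts. Of the 52636 genes, 16340 passed it.

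RNA of the soleus, a postural muscle rich in slow fibers, was sequenced from 25 C57BL/6 mice of 12 weeks, 13 male and 12 female, as 1 library per mouse. All mice carried floxed *Dnmt3a* alleles, *Dnmt3a* being a DNA methyltransferase. WT mice had no Cre, and mD3AKO mice had a Cre transgene under the muscle creatine kinase promoter, which is active in muscle fibers, so that satellite cells and other cells of the muscle may keep the gene. At rest, 5 WT and 7 mD3AKO mice were killed after a stay in a sham treadmill, and 7 WT and 6 mD3AKO mice were killed 60 min after the end of a 30-min treadmill bout. *Dnmt3a* was at 93.4 to 131 CPM (reads of a gene relative to the library's TMM-scaled total, in parts per 1000000) in the 12 WT mice and at 34.5 to 53.9 CPM in the 13 mD3AKO mice, with no overlap.

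Between 22671457 and 37431801 reads were counted per library, and 1 CPM stood for about 32.2 reads at the median total. The 9 muscle fiber markers examined were abundant in every library, and the lowest of them, *Actn2*, was at 2372 CPM or more. Mouse 15, a rested mD3AKO male, had 39.5% of its counts on 3 genes of ribosomal RNA, which took 7.75% to 13.0% in each of the 24 others. Mouse 19, an exercised mD3AKO male, had the highest *Dusp2*, *Dusp5* and *Dusp10* and the lowest *Dusp7* of the 25 mice.

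MAP kinases carry signals from growth factors, stress and contraction to the nucleus, in 3 main branches that end in ERK, JNK and p38. Each kinase is active when a threonine and a tyrosine, parted by a single residue in its activation loop, are phosphorylated, and dual-specificity phosphatases remove both phosphates. Many of their genes are themselves transcribed in response to the kinases, as negative feedback. *Dusp1*, *Dusp2*, *Dusp4* and *Dusp5* encode the inducible nuclear phosphatases, *Dusp6* and *Dusp7* cytoplasmic phosphatases of ERK, and *Dusp8*, *Dusp10* and *Dusp16* phosphatases that prefer JNK and p38. *Dusp14* encodes a small atypical phosphatase that lacks the kinase-binding domain of the others.

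At 60 min after exercise, the members did not move together. *Dusp1*, *Dusp5* and *Dusp16* were higher and *Dusp6* and *Dusp7* were lower than at rest, by the main effect of exercise over both genotypes. With 5 of 10 members called at an adjusted p under 0.05 (edgeR's quasi-likelihood test, Benjamini-Hochberg adjustment), the count stood against 10.4% of all genes tested. Because the members were chosen with earlier results of these data known, this comparison is a description, and nothing is concluded from it. By direction, the background was 5.7% higher and 4.69% lower. The median log2 fold change of the 10 members was 0.15, against -0.00088 over all genes tested. The genotype main effect was called for 0 of 10 members, against 0.269% of all genes, and the interaction for 0 of 10, against 0% of all genes. Unadjusted p-values were under 0.05 for 9 members for exercise, 2 for genotype and 0 for the interaction, against 21.3%, 6.23% and 2.47% of all genes. DESeq2 called 6, 0 and 0 members, against 11.8%, 0.496% and 0% of all genes.

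The promoters of the 5 called members are printed to set the sequences of genes that rose beside those of genes that fell. The RefSeq table (GRCm38.p6) had a promoter, from 250 bases before the annotated start to 50 after it, for 9 of the 10 members; *Dusp4* was without an entry. Capitals mark TGACG, the half-site bound by CREB and ATF factors, on either strand, and CArG boxes, the sites of serum response factor, a factor downstream of ERK. The palindrome TGACGTCA holds TGACG on both strands. The first 3 sequences belong to the genes that rose, the next 2 to those that fell, and the last is that of *Dusp8*, which has 2 TGACGTCA palindromes.
Dusp1, chr17:26508423-26508722, minus strand: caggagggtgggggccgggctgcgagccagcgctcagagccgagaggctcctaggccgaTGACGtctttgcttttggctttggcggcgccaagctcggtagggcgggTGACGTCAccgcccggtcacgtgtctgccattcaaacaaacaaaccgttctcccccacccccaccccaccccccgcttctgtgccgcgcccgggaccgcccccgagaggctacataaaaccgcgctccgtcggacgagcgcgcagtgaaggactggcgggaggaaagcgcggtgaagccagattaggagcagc
Dusp5, chr19:53528895-53529194, plus strand: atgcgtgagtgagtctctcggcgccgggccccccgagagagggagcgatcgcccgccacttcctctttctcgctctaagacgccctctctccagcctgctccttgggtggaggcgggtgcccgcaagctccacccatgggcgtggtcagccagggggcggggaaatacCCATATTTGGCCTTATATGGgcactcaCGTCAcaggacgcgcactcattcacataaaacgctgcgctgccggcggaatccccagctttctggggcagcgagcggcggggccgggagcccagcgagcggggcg
Dusp16, chr6:134792579-134792878, minus strand: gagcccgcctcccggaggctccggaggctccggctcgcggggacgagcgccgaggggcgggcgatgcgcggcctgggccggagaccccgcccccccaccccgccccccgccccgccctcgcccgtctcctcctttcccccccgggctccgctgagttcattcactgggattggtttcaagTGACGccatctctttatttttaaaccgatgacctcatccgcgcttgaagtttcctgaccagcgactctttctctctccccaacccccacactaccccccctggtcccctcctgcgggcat
Dusp6, chr10:99262981-99263280, plus strand: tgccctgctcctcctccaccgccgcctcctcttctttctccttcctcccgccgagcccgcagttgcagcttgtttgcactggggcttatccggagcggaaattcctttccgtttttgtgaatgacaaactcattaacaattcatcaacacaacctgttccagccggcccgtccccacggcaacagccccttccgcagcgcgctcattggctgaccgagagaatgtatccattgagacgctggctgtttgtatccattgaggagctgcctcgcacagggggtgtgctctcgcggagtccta
Dusp7, chr9:106368382-106368681, plus strand: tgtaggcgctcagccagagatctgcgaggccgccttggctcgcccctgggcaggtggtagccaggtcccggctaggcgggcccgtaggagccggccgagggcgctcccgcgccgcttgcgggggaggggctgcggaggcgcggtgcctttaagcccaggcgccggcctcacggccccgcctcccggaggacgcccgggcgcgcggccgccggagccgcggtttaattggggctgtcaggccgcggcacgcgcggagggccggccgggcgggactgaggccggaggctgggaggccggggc
Dusp8, chr7:142095235-142095534, minus strand: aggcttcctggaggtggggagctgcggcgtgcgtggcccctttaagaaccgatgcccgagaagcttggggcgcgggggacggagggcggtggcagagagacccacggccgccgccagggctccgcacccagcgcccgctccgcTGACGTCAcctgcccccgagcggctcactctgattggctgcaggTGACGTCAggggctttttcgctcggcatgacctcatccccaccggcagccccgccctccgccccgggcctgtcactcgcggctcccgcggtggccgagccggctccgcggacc

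TGACGTCA was in 2 of 9 member promoters and in 1.79% of the 32851 promoters of this length in the table. In *Dusp1* it spans bases -143 to -136, counted from 0 at the first base of the gene in RefSeq, and in *Dusp8* bases -107 to -100 and -63 to -56. The shorter TGACG was in 5 of 9 member promoters (*Dusp1*, *Dusp2*, *Dusp5*, *Dusp8* and *Dusp16*) and in 20.812% of all. In *Dusp16* it lies at -70 to -66. A CArG box was found in *Dusp5* alone among the members, as 2 adjoining boxes at -82 to -73 and -72 to -63, and in 1.629% of all promoters. TGANTCA, the site of AP-1 with any base at its centre, was in none of the 9 windows and in 7.808% of all. The windows of *Dusp6* and *Dusp7*, which fell, and of *Dusp10* and *Dusp14*, which were not called, held none of TGACG, the CArG box and TGANTCA. Those of *Dusp2* and *Dusp8*, also not called, did hold TGACG. The letters GGGCGG, the site of Sp1, were found in 8 of 9 member promoters (all but that of *Dusp6*) and in 35.658% of all. Member promoters had a GC content of 57.3% to 78.7%, against a median of 52.7% over all promoters. The E-box CACGTG occurred in *Dusp1* and *Dusp2* among the members and in 7.15% of all promoters. The RefSeq start is not always that of the gene as counted. The windows of *Dusp8*, *Dusp10* and *Dusp14* lie inside the counted gene, and that of *Dusp10* begins at base 184034131 of chromosome 1, where the counted gene begins at 184013302. Sequence at other starts was not searched. All motifs were searched on both strands as letters only, which shows no binding.

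**Figure D1:**
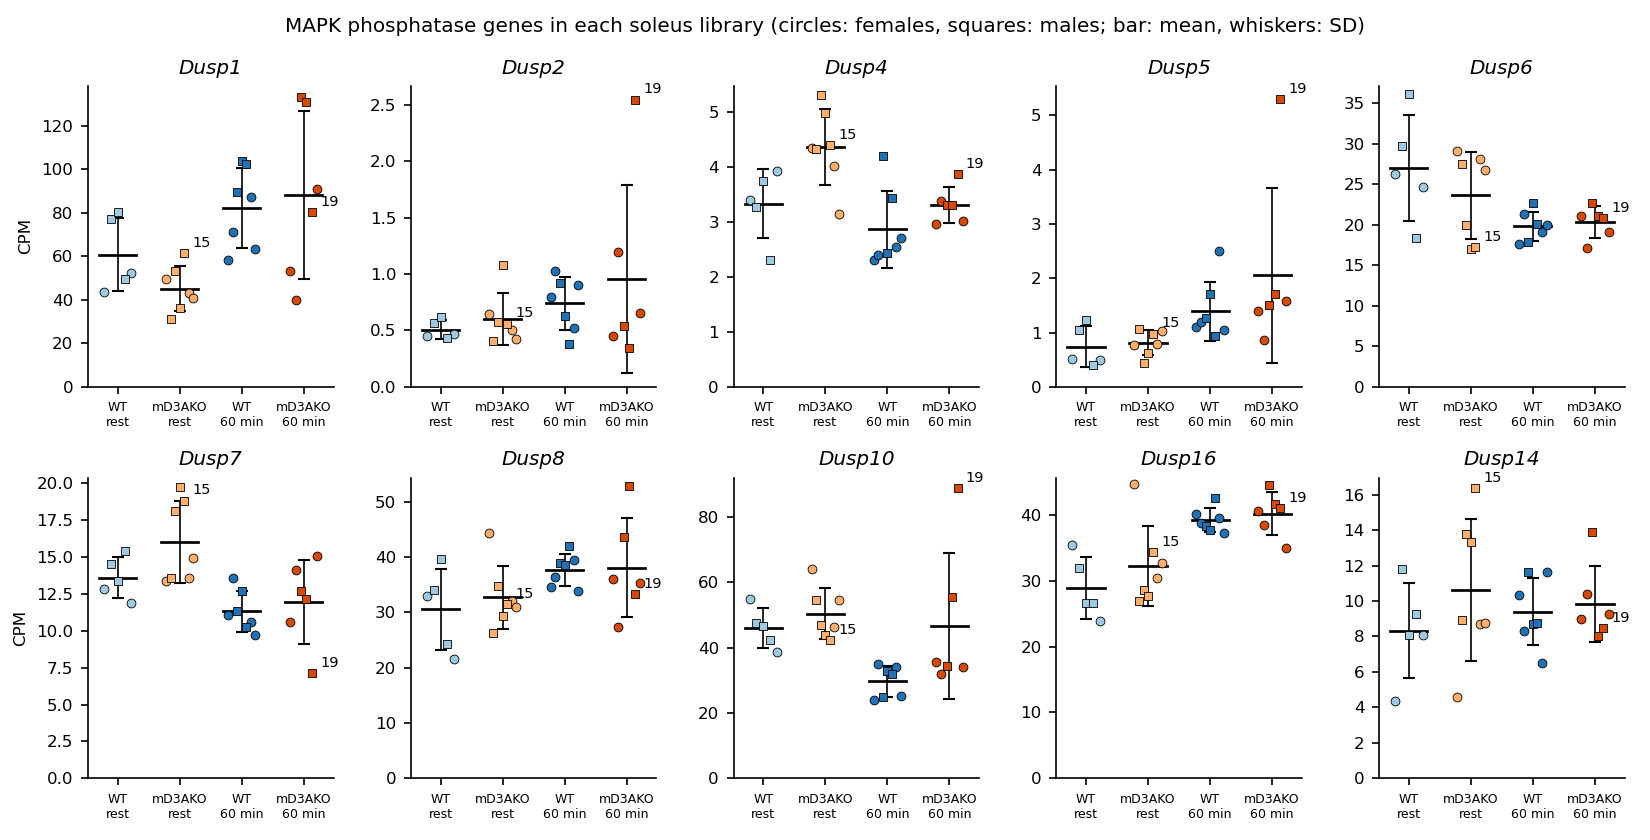
CPM of the 10 members (vertical axes, linear from 0) in each of the 25 mice by genotype and exercise, with circles for females, squares for males, horizontal bars for the group mean and whiskers for the SD, and with mice 15 and 19 numbered. The WT groups do not overlap for *Dusp10* and *Dusp16*, and mouse 19 stands at 5.29 CPM for *Dusp5* and 88.9 CPM for *Dusp10*.

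*Dusp1* encodes a nuclear phosphatase of p38, JNK and ERK and is an immediate early gene. In the 5 rested WT mice, it was at 43.7, 49.7, 52.4, 77.2 and 80.5 CPM, and in the 7 rested mD3AKO mice between 31 and 61.4 CPM with a median of 42.9. After exercise, it was between 58.1 and 104 CPM (median 87.2) in the 7 WT mice and between 39.8 and 133 CPM (median 85.6) in the 6 mD3AKO mice. Exercised mice were above the median of the rested mice in 12 of 13 cases, and 7 of 13 were above every rested mouse. The exception was mouse 6, an mD3AKO female at 39.8 CPM. Rested mice averaged 51.6 ± 15.1 CPM (SD, n = 12) and exercised mice 84.9 ± 28.3 CPM (SD, n = 13). The main effect was 0.70 ± 0.17 (log2 fold change ± SE, 1.63-fold higher, adjusted p = 0.0057 by edgeR). The call held without each mouse in turn, with adjusted p between 0.000862 and 0.015.

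*Dusp5* encodes a nuclear phosphatase that acts on ERK alone, and it changed most of the members that were called. It rests on few reads, from 13 to 156 per library. The 5 WT mice at rest had 0.401, 0.491, 0.507, 1.04 and 1.24 CPM, and the 7 mD3AKO mice at rest 0.431 to 1.07 CPM (median 0.792). After exercise, the WT mice had 0.94 to 2.5 CPM (median 1.19) and the mD3AKO mice 0.864 to 5.29 CPM (median 1.54). All 13 exercised mice were above the median of the rested mice, and 8 were above every one of them. The main effect was 1.13 ± 0.26 (2.19-fold, adjusted p = 0.00417), and 0.86 without mouse 19, the lowest value without any 1 mouse. The highest adjusted p of the fits without 1 mouse was 0.0111, without WT mouse 14. Of the 31-base words of its transcripts, 21.2% are shared with another annotated gene, which is not among the genes counted. How reads from these words were counted was not tested.

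*Dusp2* and *Dusp4* complete the nuclear group and were not called. *Dusp2*, best known from activated immune cells, was the lowest of the 10 members, with 8 to 75 reads per library. Its mean was 0.561 ± 0.183 CPM at rest (SD, n = 12) and 0.839 ± 0.575 CPM after exercise (SD, n = 13), with a main effect of 0.60 ± 0.26 (adjusted p = 0.171). The rested range of 0.408 to 1.08 CPM lay within the exercised range of 0.341 to 2.55 CPM. Without mouse 19 the effect was 0.31 (adjusted p = 0.45). *Cd68*, a marker of macrophages, was at 32.4 CPM in mouse 19 and at most 7.15 CPM in the other 24 mice, while *Adgre1* at 8.52 CPM and *Csf1r* at 34.7 CPM, also markers of macrophages, were 6th and 7th of the 25 mice in descending order. *Ptprc*, a marker of leukocytes, was 2nd at 13.2 CPM, above the other exercised mice, and the 8 immune markers summed to 89.9 CPM, the highest of the exercised mice. The part of such cells in the values of that mouse was not tested.

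*Dusp4*, whose product acts on ERK and JNK, pointed the other way. Its mean was 3.94 ± 0.831 CPM at rest and 3.07 ± 0.586 CPM after exercise, and 12 of 13 exercised mice were below the rested median. The main effect was -0.31 ± 0.10 with an adjusted p of 0.0607. DESeq2 placed it under the threshold (adjusted p = 0.0406), as did the fit with 8 groups that adds sex (adjusted p = 0.0435) and 5 of the 25 fits without 1 mouse (adjusted p between 0.0115 and 0.0455, the latter without mouse 19). The nuclear group thus held 2 members that rose and 2 that did not pass the test, with effects from -0.31 to 1.13.

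Both cytoplasmic ERK phosphatases fell. *Dusp6* was at 18.4, 24.6, 26.3, 29.7 and 36.1 CPM in rested WT mice, and rested mD3AKO mice ranged from 17 to 29.1 CPM (median 26.7). After exercise it lay between 17.6 and 22.7 CPM (median 20) in WT and between 17.1 and 22.6 CPM (median 21) in mD3AKO mice. Every exercised mouse was below the rested median, although 0 of 13 were below every rested mouse, because 4 rested males were at 17 to 19.9 CPM. The coefficient of variation was 23.4% at rest and 9.03% after exercise. By sex it was 31.5% and 8.58% in males and 6.45% and 8.29% in females, so that the wider spread at rest was that of the males. The main effect was -0.34 ± 0.098 (0.792 of the level at rest, adjusted p = 0.024). The call rested on WT mouse 13, the highest of all at 36.1 CPM, without which the effect was -0.27 (adjusted p = 0.0683).

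*Dusp7* was at 11.9, 12.9, 13.4, 14.5 and 15.4 CPM in the WT mice at rest and at 13.3 to 19.8 CPM (median 15) in the mD3AKO mice at rest. The exercised WT mice had 9.7 to 13.6 CPM (median 11) and the exercised mD3AKO mice 7.13 to 15.1 CPM (median 12.5). Of the 13 exercised mice, 11 were below the rested median and 7 below every rested mouse. The main effect was -0.34 ± 0.095 (0.789 of the level at rest, adjusted p = 0.0188), and every fit without 1 mouse kept the call (adjusted p of at most 0.04).

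The JNK and p38 phosphatases split. *Dusp16*, which encodes a phosphatase that moves between nucleus and cytoplasm, had the lowest p of the 10 members. WT mice at rest had 23.8, 26.6, 26.7, 31.9 and 35.4 CPM, all below the 37.3 to 42.6 CPM (median 38.7) of the exercised WT mice. The levels of mD3AKO mice were 27 to 44.6 CPM at rest (median 30.4) and 35 to 44.5 CPM after exercise (median 40.8), and the overlap came from the rested female 2 at 44.6 CPM. The mean was 30.8 ± 5.58 CPM at rest and 39.6 ± 2.48 CPM after exercise. The main effect was 0.38 ± 0.071 (1.3-fold, adjusted p = 0.000501), with adjusted p of at most 0.00195 when any 1 mouse was left out.

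*Dusp8*, a phosphatase prominent in brain and heart, had a main effect of 0.26 ± 0.10 (adjusted p = 0.107). Its mean was 31.8 ± 6.25 CPM at rest and 37.9 ± 6.1 CPM after exercise, and 12 of 13 exercised mice were above the rested median. It was called in 2 of the 25 fits without 1 mouse, without mouse 2 (adjusted p = 0.0403) and without mouse 13 (adjusted p = 0.0435).

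*Dusp10*, whose product prefers p38 and JNK, did not pass the test for exercise in all 25 mice by the fit with 4 groups. The WT mice at rest had 38.8, 42.2, 46.6, 47.7 and 54.8 CPM, all above the 23.9 to 35 CPM (median 32) of the exercised WT mice. The mD3AKO mice had 42.4 to 64.3 CPM at rest (median 47.1). After exercise, 4 of the 6 mD3AKO mice were at 31.9 to 35.6 CPM, and males 17 and 19 were at 55.7 and 88.9 CPM. In all, 11 of 13 exercised mice were below every rested mouse. The main effect of -0.37 ± 0.13 did not pass the test (adjusted p = 0.0797), and without mouse 19 it was -0.52 (adjusted p = 0.000476). The fit with 8 groups called it (adjusted p = 0.022). Leaving out any other single mouse gave no call, and leaving out mice 15 and 19 together, chosen after the data were seen, gave -0.54 (adjusted p = 0.000428).

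The atypical member *Dusp14* had a mean of 9.67 ± 3.58 CPM at rest and 9.61 ± 1.94 CPM after exercise. Its main effect was 0.04 ± 0.16 (95% interval -0.30 to 0.38, adjusted p = 0.946), and 7 of 13 exercised mice were above the rested median. The levels ranged from 4.39 to 16.4 CPM at rest and from 6.48 to 13.9 CPM after exercise. The highest at rest was mouse 15, and the next at 13.8 CPM was mouse 8, just under the highest exercised mouse. For none of the 10 members did all exercised mice lie on 1 side of all rested mice, which 1.07% of all genes tested did.

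Fewer cells of a type and less RNA per cell cannot be told apart in whole muscle, and markers of other cells moved with exercise. Against 4.69% of all genes that fell, 4 of 6 endothelial markers did (*Cdh5* by 0.23, *Kdr* by 0.58, *Tek* by 0.35 and *Cldn5* by 0.59 on the log2 scale). Their summed level was 368 to 490 CPM in WT and 365 to 472 CPM in mD3AKO mice at rest, and 306 to 408 and 321 to 390 CPM after exercise. Of 6 satellite cell markers, *Pax7* (-0.45) and *Myf5* (-0.46) fell and *Sdc4* (0.93) rose, and *Pax7* was also higher in mD3AKO mice (0.48, adjusted p = 0.0384). Their sum, most of it *Sdc4*, was 90.9 to 118 CPM in WT and 101 to 132 CPM in mD3AKO mice at rest, and 150 to 194 and 120 to 187 CPM after exercise. *Pdgfrb* of 6 smooth muscle and pericyte markers fell (-0.46), as did *S100a9* of the 6 immune markers tested (-1.28), which was at most 0.868 CPM. The 8 immune markers summed to 29.3 to 92.4 CPM in rested mD3AKO mice and 18.1 to 89.9 CPM in exercised ones, with 39.7 to 58.8 and 25.1 to 58.2 CPM in WT mice. None of the 9 muscle fiber, 8 fast fiber, 6 fibroblast, 6 adipocyte, 5 Schwann cell and 5 blood cell markers was called for exercise. The median log2 fold change was -0.38 for the fibroblast markers and -0.29 for the endothelial ones. It was 0.041 for muscle fiber, 0.019 for fast fiber, 0.09 for adipocyte, 0.1 for Schwann cell and -0.12 for blood cell markers. The part of these cells in the members' changes was not tested.

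**Figure D2:**
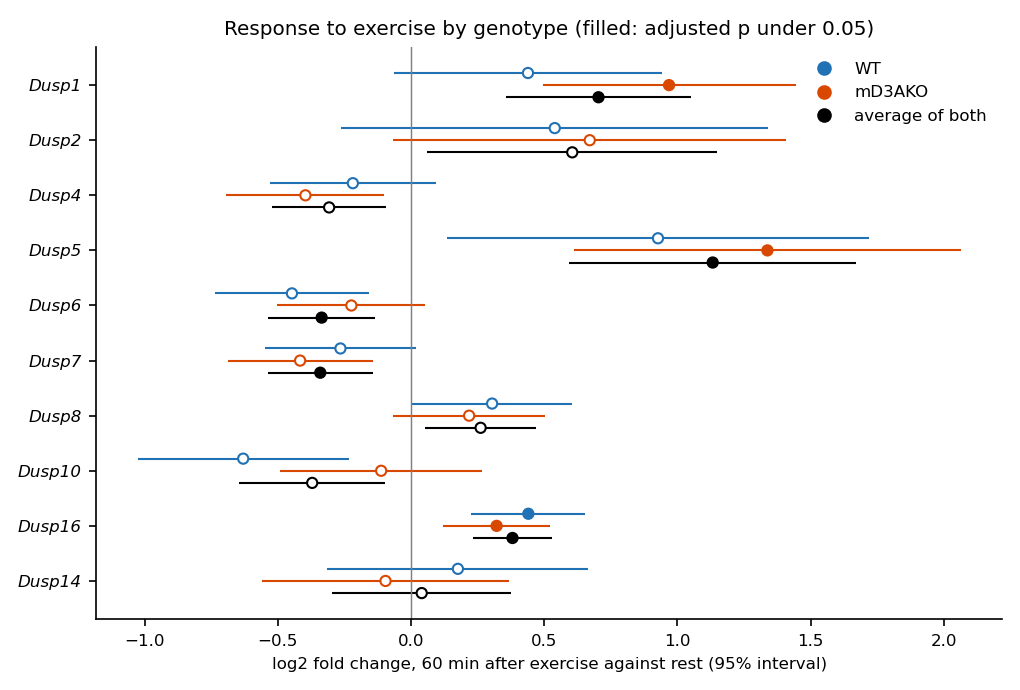
Log2 fold change of each member 60 min after exercise against rest (horizontal axis, with 95% intervals) in WT mice, in mD3AKO mice and averaged over both, with filled points where the adjusted p is under 0.05. *Dusp16* is filled in all 3, *Dusp1* and *Dusp5* in mD3AKO mice and the average, and *Dusp6* and *Dusp7* in the average alone.

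Within WT mice, exercise was called for 1 of 10 members, *Dusp16* (0.44 ± 0.10, adjusted p = 0.0123), against 3.59% of all genes. Within mD3AKO mice it was called for 3 of 10, *Dusp1* (0.97 ± 0.23, adjusted p = 0.00945), *Dusp5* (1.34 ± 0.35, adjusted p = 0.0204) and *Dusp16* (0.32 ± 0.098, adjusted p = 0.0499), against 6.02%. *Dusp1* was at 0.44 ± 0.24 in WT mice (adjusted p = 0.529), and *Dusp5* at 0.93 ± 0.39 (adjusted p = 0.267). These calls do not show that the genotypes responded differently, and the interaction was not called for any member (all adjusted p = 1.00). For *Dusp1* the mD3AKO response exceeded the WT response by 0.53 (95% interval -0.16 to 1.22), and for *Dusp5* by 0.41 (-0.66 to 1.48), which was -0.13 without mouse 19. The interval of *Dusp5* leaves room for a larger or a smaller mD3AKO response, and that of *Dusp1* mainly for a larger one.

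The within-genotype counts moved with single mice. Without mouse 19, the mD3AKO count was 1, against 4.84% of all genes, and the WT count 2, against 3.78%, with *Dusp10* added in WT mice (-0.64, adjusted p = 0.00482). *Dusp5* in mD3AKO mice was then at 0.79 (adjusted p = 0.129). Without WT mouse 20 or without WT mouse 14, *Dusp16* lost its call in WT mice, with effects of 0.38 and 0.41 (adjusted p = 0.0608 and 0.0522), and without mouse 14 *Dusp6* gained one (-0.56, adjusted p = 0.0164). *Dusp7* gained a call in mD3AKO mice in 3 fits, without mouse 2, 6 or 23 (adjusted p between 0.0273 and 0.0462). In the mD3AKO mice, *Dusp16* kept its call in 5 of the 25 fits without 1 mouse, *Dusp5* in 24 and *Dusp1* in 25. Between the groups, *Dusp10* and *Dusp16* did not overlap in WT mice, 2 of 10 members against 3.24% of all genes, and 0 of 10 members were without overlap in mD3AKO mice, against 2.24%.

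The member with the largest interaction relative to its error was *Dusp10*. It was -0.63 ± 0.19 in WT mice (adjusted p = 0.073) and -0.11 ± 0.18 in mD3AKO mice (adjusted p = 0.835), where it was -0.41 without mouse 19. The difference of the responses was 0.52 (95% interval -0.03 to 1.07, unadjusted p = 0.0635). Without mouse 19 that difference was 0.23, the lowest value of the fits without 1 mouse.

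Loss of *Dnmt3a* in muscle was followed by no called difference in any member, at rest (0 of 10, against 0.0918% of all genes), after exercise (0 of 10, against 0.11%) or on average. For the genotype effect after exercise, *Dusp10* had the lowest p among the members. Exercised mD3AKO mice were at 46.7 ± 22.4 CPM (SD, n = 6) and exercised WT mice at 29.7 ± 4.79 CPM (SD, n = 7), a difference of 0.65 ± 0.18 (unadjusted p = 0.00161, adjusted p = 0.408), which was 0.36 without mouse 19. *Dusp4* was at 4.36 ± 0.698 CPM in mD3AKO mice at rest (SD, n = 7) and 3.33 ± 0.627 CPM in WT mice at rest (SD, n = 5). Its genotype main effect was 0.30 ± 0.10 (unadjusted p = 0.00921, adjusted p = 0.493), and that of *Dusp10* 0.39 ± 0.13 (unadjusted p = 0.00717, adjusted p = 0.449), which was 0.25 without mouse 19.

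For the other 8 members, the 95% intervals of the genotype main effect all held 0, which follows from their unadjusted p above 0.05. The narrowest was that of *Dusp16*, from -0.05 to 0.24 on the log2 scale, and the widest that of *Dusp2*, from -0.25 to 0.85. The median difference over the 10 members was 0.18, against 0.007 over all genes.

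The sexes were spread unequally over the groups, with 2 females and 3 males among the WT mice at rest and 3 and 4 among the mD3AKO mice at rest. After exercise there were 4 females and 3 males among the WT mice and 3 of each among the mD3AKO mice. In the fit with 8 groups of sex, genotype and exercise, *Dusp1* was higher in males by 0.50 ± 0.14 (adjusted p = 0.0247), as 1 of 10 members called, against 8.15% of 17389 genes. The 6 exercised males had 80.1 to 133 CPM and the 7 exercised females 39.8 to 91.1 CPM. At rest, the range of the 7 males, 31 to 80.5 CPM, held that of the 5 females, 40.8 to 52.4 CPM. That call was lost without mouse 1, 3, 13, 20 or 24, with effects between 0.46 and 0.53 and adjusted p between 0.0503 and 0.066. *Dusp14* was higher in males by 0.42 ± 0.14 without a call (adjusted p = 0.0663), and was called without mouse 7 or mouse 20 (adjusted p = 0.0368 and 0.0387).

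**Figure D3:**
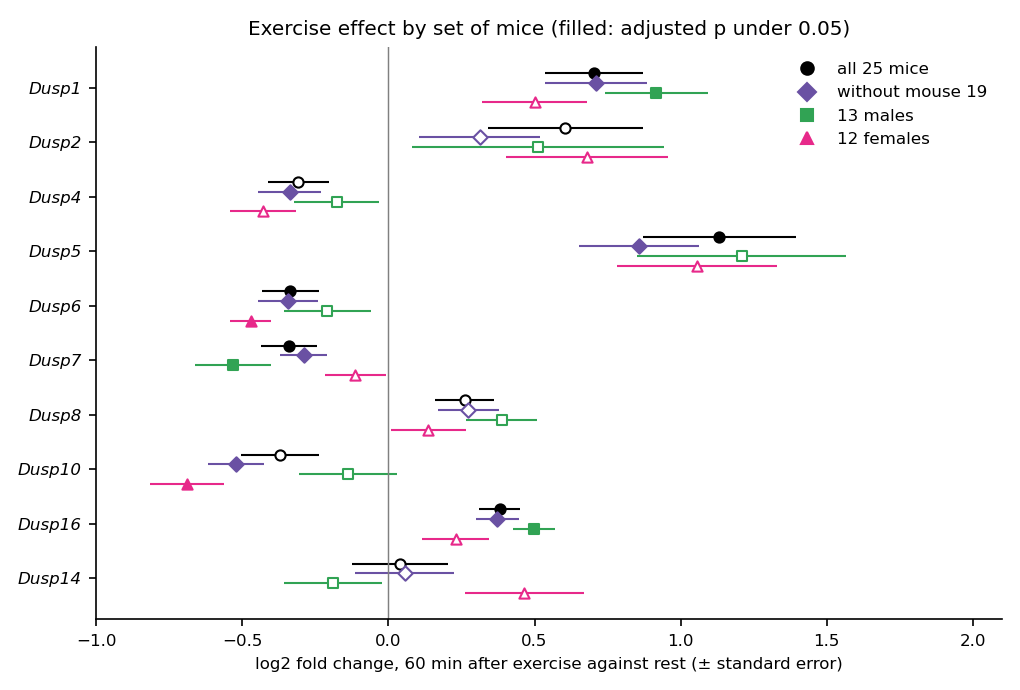
Log2 fold change of each member for the exercise main effect (horizontal axis, ± SE) in all 25 mice, without mouse 19, in the 13 males and in the 12 females, with filled points where the adjusted p is under 0.05. *Dusp10* is filled without mouse 19 and in females, and *Dusp2* moves from 0.60 to 0.31 without mouse 19.

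With only the males, exercise was called for 3 members, against 6.01% of all genes, and with only the females for 2, against 3.03%. In males these were *Dusp1* (0.92, adjusted p = 0.00604), *Dusp7* (-0.53, adjusted p = 0.028) and *Dusp16* (0.50, adjusted p = 0.000687). In females they were *Dusp6* (-0.47, adjusted p = 0.00216) and *Dusp10* (-0.69, adjusted p = 0.00881). Rested and exercised females averaged 45.9 and 66.3 CPM for *Dusp1* and 13.3 and 12.1 CPM for *Dusp7*. For *Dusp16*, all 7 exercised females were above the median of the rested ones. Rested and exercised males had means of 46.3 and 44.8 CPM for *Dusp10*, with medians of 46.6 and 33.6 CPM. *Dusp6* had -0.21 in males (adjusted p = 0.522), where 5 of the 6 exercised mice were above the median of the rested ones. *Dusp5* had 1.21 in males (adjusted p = 0.0693) and 1.06 in females (adjusted p = 0.0635). The lists differ, but the difference between male and female responses was not called for any member (0 of 10, against 0.046% of all genes).

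The responses of *Dusp7* (male minus female -0.42 ± 0.18), *Dusp10* (0.55 ± 0.23) and *Dusp14* (-0.66 ± 0.28) had unadjusted p between 0.0253 and 0.0283 for that difference, all with an adjusted p of 1.00. By p they were 329th, 290th and 314th of 17389 genes. The share of all genes with an unadjusted p under 0.05 is not given for this difference. The values of *Dusp10* in single mice are given as a description. All 7 exercised females, at 23.9 to 35.6 CPM, were below all 5 rested females, at 38.8 to 64.3 CPM, while exercised males 17 and 19 were above all 7 rested males. The other 4 exercised males, at 24.9 to 34.3 CPM, were below every rested male, of which the lowest was at 42.2 CPM. Without mouse 19, the difference between male and female responses of *Dusp10* was 0.34. Groups without overlap were found for 2 of 10 members in males (*Dusp7* lower and *Dusp16* higher, against 3.59% of all genes) and for 2 of 10 in females (*Dusp6* and *Dusp10* lower, against 3.18%).

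**Figure D4:**
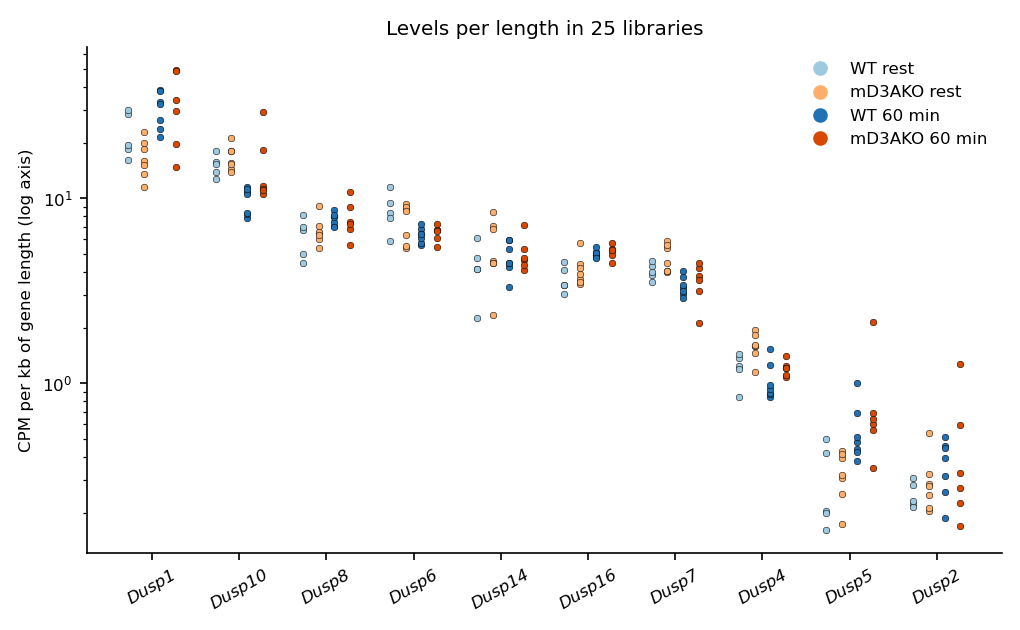
CPM per kb of gene length (vertical axis, log scale) of the 10 members in the 25 mice, ordered by mean and coloured by group. *Dusp7* and *Dusp4* are the only neighbours in this order whose ranges do not overlap.

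Set side by side per length, the members spanned a wide range of levels. *Dusp1* led with a mean of 25.6 ± 10.4 CPM per kb (SD, n = 25), followed by *Dusp10* at 14.1 ± 4.7, *Dusp8* at 7.18 ± 1.39, *Dusp6* at 7.17 ± 1.56, *Dusp14* at 4.95 ± 1.43, *Dusp16* at 4.54 ± 0.786 and *Dusp7* at 3.95 ± 0.852. The lowest were *Dusp4* at 1.27 ± 0.301, *Dusp5* at 0.509 ± 0.391 and *Dusp2* at 0.352 ± 0.224 CPM per kb. The ranges over mice overlapped for all neighbours in this order but *Dusp7* and *Dusp4*. The order is that of all 25 mice and differed between states. *Dusp6* had a higher mean than *Dusp8* at rest (8 and 6.53 CPM per kb) and a lower one after exercise (6.4 and 7.77). *Dusp16* was below *Dusp14* and *Dusp7* at rest (3.95, 4.97 and 4.48 CPM per kb) and above both after exercise (5.08, 4.94 and 3.46). In rested mD3AKO mice, *Dusp1* and *Dusp10* had means of 16.7 ± 3.87 and 16.6 ± 2.55 CPM per kb (SD, n = 7). Within a mouse, *Dusp1* was above *Dusp10* in 20 of 25 mice, *Dusp10* was above *Dusp8* in 25 of 25 mice and *Dusp8* above *Dusp6* in 16 of 25.

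The members' shares of their sum are given as a description. *Dusp1* took 29 ± 5.78% of the members' summed CPM per kb at rest (SD, n = 12) and 41.8 ± 7.43% after exercise (SD, n = 13). *Dusp10* took 24.8 ± 3.95% at rest and 16.6 ± 5.59% after exercise, and *Dusp6* 12.3 ± 2.44% and 8.9 ± 1.36%. These shares are not independent of one another, and a rise of *Dusp1* alone lowers the others. The shares were not tested.

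Across mice, the members did not form 1 group. The means of the 4 groups of genotype and exercise were removed, and differences between the sexes were left in. The log2 CPM of *Dusp1* and *Dusp8* then had Pearson's r = 0.72 and Spearman's rho = 0.71 over the 25 libraries. For *Dusp8* and *Dusp16*, r was 0.61 and rho 0.62. *Dusp8*, which had not passed the test for exercise, thus varied with both. *Dusp10* and *Dusp14* had r = -0.54 and rho = -0.69, and *Dusp6* and *Dusp7*, which both fell after exercise, r = -0.44 and rho = -0.49. For *Dusp5* and *Dusp10*, r was 0.65 with mouse 19 and 0.42 without it. The 45 pairs share libraries and scaling, and these values are descriptions.

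The genes most like a called member over all 25 libraries, by Spearman's rho of log2 CPM, were taken as a description. For *Dusp1* they were *Adamts1*, a secreted protease (rho = 0.92), *Csrnp1* (0.86) and *Jun* (0.85), which encodes a subunit of AP-1. *Dusp5* was most like *Midn* (0.88), *Skil*, an inhibitor of SMAD signalling (0.87), and *F2rl1*, a protease-activated receptor (0.86). *Dusp16* was most like *Zbtb21* (0.88), *Aff4*, a scaffold of transcription elongation (0.86), and *2310057M21Rik* (0.85). For the members that fell, *Dusp6* was most like *Csf1* (0.78), a growth factor of macrophages, *Has2*, a hyaluronan synthase (0.78), and *Socs3*, an inhibitor of cytokine signalling (0.73). *Dusp7* was most like *Hic1* (0.74), *Rgma* (0.74) and *Zfp354a* (0.72). Of these 15 genes, 13 were themselves called for exercise, against 10.4% of all genes, and *Csf1* and *Socs3* were not. A high count follows from the choice of genes that vary with called members, and nothing is concluded from it. The libraries include rested and exercised mice, and how much of the likeness comes from the difference between them was not tested.

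The rest of the pathway was examined from lists of its kinases, phosphatases, inhibitors and target genes. These lists too were chosen with earlier results of these data known, and their counts are descriptions. The counts in these short lists stand against 10.4% of all genes called for exercise, 5.7% higher and 4.69% lower, and a count of 0 in a list of this size is near that share. Of 9 MAP kinases tested and 7 MAP kinase kinases, 0 were called, with medians of 0.006 and 0.013. Their largest values were those of *Mapk10*, a JNK gene (-0.56, at most 33 reads, adjusted p = 0.323), *Mapk3*, which encodes ERK1 (-0.16, adjusted p = 0.132), *Map2k6* (0.11, adjusted p = 0.522) and *Map2k3* (0.10, adjusted p = 0.572), both activators of p38. Among 6 Sprouty and Spred genes, feedback inhibitors of ERK signalling, 0 were called. Their median was -0.18, with the largest changes in *Spred3* (-0.31, adjusted p = 0.155) and *Spry2* (-0.23, adjusted p = 0.342).

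Among 14 other dual-specificity phosphatases, *Dusp3*, a phosphatase of ERK and JNK, rose by a small amount (0.15, from 87.7 ± 6.74 to 97 ± 4.94 CPM, adjusted p = 0.0178). *Dusp9*, the remaining classical MAP kinase phosphatase, had at most 4 reads in any library and was not tested. Of 7 other phosphatases of MAP kinases, *Ptprr*, a tyrosine phosphatase that binds ERK and p38, rose, with 2.28 ± 0.474 CPM in rested mice (SD, n = 12) and 4.31 ± 0.505 CPM in exercised mice (SD, n = 13). Its main effect was 0.93 with an adjusted p of 2.97e-07. The other 6, from the families of *Ppm1* and *Ppp2* and *Ptpn7*, were not called.

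Of 22 immediate early targets and transcription factors of the pathway, 5 rose and 0 fell, against 5.7% and 4.69% of all genes. Nothing is concluded from these counts, as the list was chosen with earlier results known. *Fos*, a partner of *Jun* in AP-1, rose from 9.15 ± 6.94 to 93.9 ± 88.7 CPM (3.35, adjusted p = 6.72e-05). *Ier5* (1.73), *Fosl2* (1.09), *Jun* (1.04) and *Phlda1* (0.85) also rose, with adjusted p between 1.21e-05 and 0.0134. The early growth response genes did not pass the test and had *Egr1* at -0.23, *Egr2* at -0.37 and *Egr3* at -0.97. The highest rested mouse was at 118, 23 and 14.8 CPM for these genes and the highest exercised mouse at 33.1, 4.24 and 1.8 CPM. For *Egr2* and *Egr3*, 2 rested mice were above every exercised mouse, and the part of single mice in these effects was not tested. The median over the 22 genes was 0.041. The genotype main effect was called for none of the genes of these 6 lists.

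**Figure D5:**
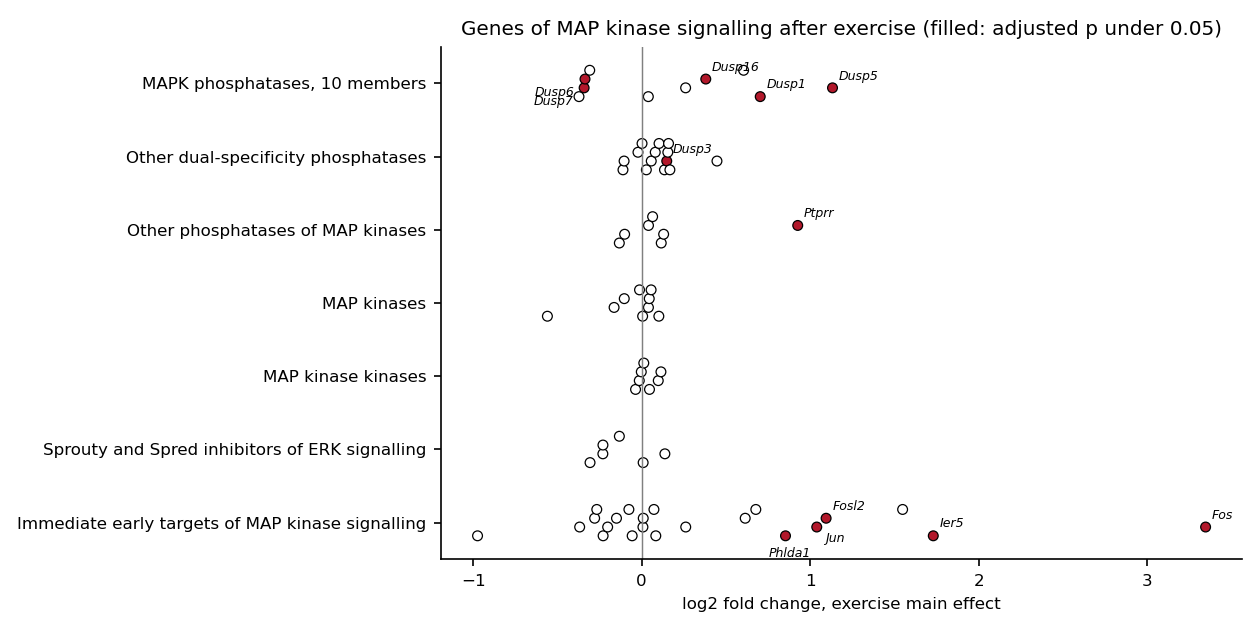
Log2 fold change for the exercise main effect (horizontal axis) of every gene tested in the 10 members and in 6 lists of the MAP kinase pathway, with filled points and names where the adjusted p is under 0.05. The kinases and kinase kinases hold no filled point, and *Fos* is farthest to the right at 3.35.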

How the data were processed

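The data are the deposited read counts per gene, made by the authors from rRNA-depleted, stranded 75-base paired-end libraries. The submitters' processing notes name FastQC 0.11.5, STAR 2.5.3a, featureCounts 1.5.3 and mm10, and the study's methods name GENCODE M15. Whether counting used the strand is not given in the sources used here. Antisense genes overlap *Dusp8*, *Dusp10* and *Dusp16*, with 10, 457 and 120 reads in all libraries together, and their reads cannot be told apart without strand.

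Groups came from the labels. Symbols were matched through GENCODE M21 (52403 of 52636 genes). No pair of replicates among 67 was identical, and each differed beyond sampling noise. Genes passed filterByExpr (minimum count 10, total 15) and were tested with edgeR 4.0.16 (R 4.3.3, quasi-likelihood F test, TMM) in 1 fit with a mean for each of the 4 groups, with Benjamini-Hochberg adjustment over all genes tested. Sex was tested with 8 groups over 17389 genes. SE were derived from the fold change and its F statistic. Each p measures the spread between mice. In simulated counts of 16340 genes, 106 genes were changed by 0.5 (log2) and 94 by 1 for the exercise effect. Of these, 64.2% and 94.7% were recovered. They were drawn at random from all genes tested and were fewer than the genes called in the data. The rates are thus not those of the members, which were not simulated on their own. Alternatives were DESeq2 1.42.0, RLE scaling, no filter, a filter of 1 CPM in 5 libraries, sex as a term, 8 groups, 1 sex only, a robust fit, and leaving out each mouse. The named genes were the members, *Dnmt3a*, every called gene of a list or else at most its 2 largest changes, and the 3 genes most like each called member. *Actn2*, the early growth response genes, *Dusp9*, the 6 genes of *Ppm1*, *Ppp2* and *Ptpn7*, and the genes given for mouse 19 (*Cd68*, *Adgre1*, *Csf1r* and *Ptprc* among them) were named after their values were seen. The members and lists were chosen with earlier results of these data known. The authors' other assays were not analysed here.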

Additional observations from a re-analysis of the deposited data

Results flagged for a closer look

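In 3 of 40 combinations of a member and a group, 1 mouse stood apart from the others of its group by Dixon's test at the 95% level. Chance alone flags about 1 in 20 such groups. *Dusp2* in the rested mD3AKO mice was at 1.08 CPM in mouse 12, a male, and at most 0.645 CPM in the other 6. *Dusp5* in the exercised mD3AKO mice was at 5.29 CPM in mouse 19, a male, and at most 1.71 CPM in the other 5. *Dusp16* in the rested mD3AKO mice was at 44.6 CPM in mouse 2, a female, and at most 34.3 CPM in the other 6.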

How the results depend on the processing

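No paired analysis was possible because each mouse number occurs once and no mouse stands in more than 1 group. The count of called members for exercise was 5, and between 5 and 7 with DESeq2, RLE scaling, no filter, the stricter filter, sex as a term, 8 groups, the robust fit, without mice 15 and 19 together, or without any 1 mouse. It was 3 in males and 2 in females, where fewer mice entered each fit. The genotype and interaction counts stayed at 0 in all of these. Without 1 mouse, the counts ranged from 0 to 2 for exercise in WT mice (against 2.7% to 3.78% of all genes), 1 to 4 for exercise in mD3AKO mice (4.57% to 6.55%) and 0 to 2 for sex (4.58% to 10.1%). *Dusp2* was not tested under the stricter filter. Its 8 reads in the shallowest case limit any statement about it.

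Among effects that were not called, signs changed as follows, and the cause was not tested. In males, exercise gave -0.19 for *Dusp14*, and the interaction gave 0.22 for *Dusp8* and 0.055 for *Dusp16*. In females, genotype gave 0.049 for *Dusp6*, and the interaction gave -0.073 for *Dusp1*, -0.28 for *Dusp2*, 0.26 for *Dusp4*, -0.98 for *Dusp5*, -0.16 for *Dusp6*, 0.068 for *Dusp7* and -0.037 for *Dusp10*. Without mice 15 and 19 the interaction was -0.44 for *Dusp2*, -0.081 for *Dusp5* and 0.013 for *Dusp7*.

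Without 1 mouse, exercise ranged from -0.041 to 0.12 for *Dusp14*, genotype from -2.21e-05 to 0.11 for *Dusp8*, and the interaction from -0.45 to 0.34 for *Dusp2*, -0.13 to 0.62 for *Dusp5* and -0.20 to 0.011 for *Dusp8*. Exercise in mD3AKO mice ranged from -0.23 to 0.035 for *Dusp14*, and genotype at rest from -0.013 to 0.41 for *Dusp5*. Genotype after exercise ranged from -0.063 to 0.25 for *Dusp1*, -0.21 to 0.54 for *Dusp2*, -0.00088 to 0.080 for *Dusp6*, -0.10 to 0.093 for *Dusp8* and -0.059 to 0.13 for *Dusp14*. Sex ranged from -0.12 to 0.33 for *Dusp2*, -0.075 to 0.039 for *Dusp6* and -0.099 to 0.052 for *Dusp16*, and the response by sex from -0.85 to 0.062 for *Dusp2* and -0.26 to 0.36 for *Dusp5*.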

Other observations

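Mouse 19 also stood apart in other genes of the lists, which were chosen for mention after their values were seen. *Myc* was at 8.82 CPM, against at most 5.9 CPM in the other exercised mD3AKO mice. *Spry2* (20.3 CPM), *Spry4* (17.2), *Fosl1* (2.34), *Map2k3* (136) and *Mapk12* (162) were each the highest of the 25 mice. So were *Mapk11*, *Ptpn7*, *Ptprr*, *Dusp13* and *Dusp27*. Of the muscle fiber markers, *Acta1*, *Des*, *Mb* and *Actn2* were the highest of the 25 mice, and *Tnnt1*, *Myl2* and *Myh7* were 12th, 15th and 22nd. Of the smooth muscle and pericyte markers, *Cspg4* was the highest, and *Myh11* and *Rgs5* were 20th and 24th. Of the immune markers, *Cd68* and *Cd3e* (0.102 CPM) were the highest, *Ptprc* was 2nd, *S100a8*, *Adgre1* and *Csf1r* were 5th, 6th and 7th, and *S100a9* (0.407 CPM) and *Cd79a* (0.0679 CPM) were 10th and 16th. Genes at their lowest of the 25 mice included *Map2k7* (30.9 CPM), *Etv5* (9.26), *Myf5* (1.15) and *Lum* (26.5). *Dusp1* of that mouse, at 80.1 CPM, was 9th of 25 in descending order and *Dusp16*, at 41 CPM, 5th.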
